A study of Mus musculus with 12 samples.

Results

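The chains of the collagen superfamily were taken as every row whose gene symbol follows the pattern Col, a type number, the letter a and a chain number. A total of 44 of the 45859 genes in the tables met this rule, and collagens are described here as RNA in FPKM (fragments scaled to transcript length and to the mapped fragments of the library), a level per length that allows genes to be compared. RNA came from lens capsules with their attached lens epithelial cells (LCs) of adult mice aged 2 months, after surgery that took out the lens fiber cells. WT mice were C57BL/6. The β8ITG-cKO mice, on a mixed background of C57BL/6 and 129S1/Sv, carried floxed Itgb8, the gene of the β8 integrin subunit, and the MLR10-Cre transgene, which deletes exon 4 of Itgb8 in LCs and in the fiber cells made from them from the lens vesicle stage onward. Capsules were taken at 0 h or 24 h post cataract surgery (PCS), giving WT 0 h, WT 24 h, β8ITG-cKO 0 h and β8ITG-cKO 24 h with 3 libraries each, each a pool of 5 capsules. All 12 libraries had the surgery and animals of both sexes were used, no library from unoperated eyes was analysed, and genotype cannot be told apart from strain background since the labels give WT as C57BL/6 alone.

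Collagens are secreted proteins whose chains wind around each other into a helix. Fibrillar chains (types I, II, III, V, XI, XXIV and XXVII) build banded fibrils, and the chains of type IV build the sheet-like network of basement membranes. The lens capsule is itself an unusually thick basement membrane that LCs lay down throughout life. Fibril-associated chains (types IX, XII and XVI among others) coat fibrils, type VI forms beaded filaments, type VIII forms the hexagonal lattice of Descemet's membrane under the corneal endothelium, and type XVIII is a heparan sulfate proteoglycan of basement membranes. After cataract surgery, remaining LCs can turn into fibrotic cells that deposit fibrillar collagen on the capsule, a cause of posterior capsular opacification.

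The FPKM of a library were the same in every table that held it. Summed FPKM ran from 446531 to 740140.0. Read totals were not used here, so no counting interval can be given, and the steps between low values put the relative depth of the libraries at 0.87 to 1.1. Itgb8 had 7.26 to 10.8 FPKM in WT 0 h and 4.58 to 7.31 in β8ITG-cKO 0 h, and 8.38 to 9.58 against 9.28 to 11.8 at 24 h, values per gene that say nothing of the deleted exon alone. The 7 lens epithelium markers, Pax6 and Foxe3 among them, summed to 479 to 498 FPKM in WT 0 h and 380 to 406 in WT 24 h. In β8ITG-cKO they summed to 579 to 639 at 0 h and 289.8 to 342 at 24 h. By the means, Foxe3, Prox1, Pitx3 and Gja1 followed the order of these sums. Pax6 was highest in WT 0 h (90.5 FPKM), Six3 was lowest in WT 24 h (25.8), and Cdh1 rose in WT (59.1 to 80.9). The 8 fiber cell markers summed to 7265 to 10448 FPKM in WT 0 h, 1181 to 2701 in WT 24 h, 10637 to 11746 in β8ITG-cKO 0 h and 1550.2 to 1607 in β8ITG-cKO 24 h. Markers of the retina, the iris and ciliary body, the cornea, vessels, blood and leukocytes were present at levels that differed between groups and are given with the chains below. In bulk RNA, fewer cells of a type and less RNA per cell cannot be told apart.

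Collagen IV made up most of the collagen RNA on these capsules. Over the 12 libraries Col4a1 averaged 959 FPKM, Col4a2 434, Col4a3 106, Col18a1 103, Col4a4 101, Col4a5 87.3, Col6a3 57.4 and Col4a6 54.4. Col4a3, Col4a4 and Col18a1 had ranges over libraries that overlapped almost entirely. The 6 type IV chains held 85.2 to 89.6% of all collagen FPKM in WT 0 h and 88.5 to 94.2% in β8ITG-cKO 0 h. At 24 h they held less, 74.9 to 82.1% in WT and 64.6 to 78.3% in β8ITG-cKO. A mean of at least 0.5 FPKM was reached by 27 of the 44 chains, at least 2 FPKM by 22 and at least 10 FPKM by 12. The other 17 lay under 0.5 FPKM, and 16 chains stayed under 1 FPKM in every library (highest value 0.728 FPKM), among them Col3a1, the partner of type I in the fibrils of most connective tissue, with 0.0117 to 0.409 FPKM. A total of 8 chains were listed at 0 in at least 1 library and none in all 12.

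Collagen RNA as a whole was lower after 24 h PCS. Summed over the 44 chains, the level was 2332, 2409 and 2394 FPKM at WT 0 h and 1488, 1167 and 1231 in WT 24 h, and 2406, 3809 and 3283 in β8ITG-cKO 0 h against 1143, 1346 and 1496 in β8ITG-cKO 24 h. The 24 h libraries lay below every 0 h library of their genotype. These sums follow Col4a1 and Col4a2 and were not tested. All genes together summed to 446531 to 640837 FPKM in WT 0 h and 661583 to 740140 in β8ITG-cKO 0 h. As a share of all FPKM, the collagen chains held 0.376 to 0.536% in WT 0 h and 0.325 to 0.576% in β8ITG-cKO 0 h. At 24 h they held 0.217 to 0.280% in WT and 0.216 to 0.255% in β8ITG-cKO, also without a test.

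Each comparison asked which chains differed between a pair of conditions. A gene was called when the adjusted p of limma-trend on log2(FPKM + 1) was at most 0.05, the group means differed by more than 2-fold and by more than 2 FPKM, and at least 1 mean was 2 FPKM or more. In WT over 24 h, 5 of 27 chains tested were called higher and 8 lower, where 10.3% of the 15146 genes tested were called higher and 3.92% lower. In β8ITG-cKO over 24 h, 3 of 28 chains were called higher and 5 lower, against 11.3% and 3.77% of 15237 genes. The share of chains called lower was thus above the background in both genotypes, while the share called higher was not above it in β8ITG-cKO. By adjusted p alone, 6 of 27 chains were higher and 10 lower in WT, and 11 of 28 higher and 9 lower in β8ITG-cKO. Over all genes these counts were 3165 higher and 1335 lower of 15146 in WT. In β8ITG-cKO they were 5394 higher and 1636 lower of 15237. The median log2 change of the chains was -0.171 in WT and 0.237 in β8ITG-cKO, beside 0.158 and 0.228 over all genes tested. Groups did not overlap, with all 24 h values on the same side, for 8 chains higher and 12 lower in WT (over all genes 31.3% and 15.6%) and for 12 higher and 9 lower in β8ITG-cKO (42.9% and 14%). Rescaling every library to the same median moved the median change of all genes by -0.206 in WT and -0.229 in β8ITG-cKO, and the calls became 3 higher and 10 lower in WT and 1 higher and 7 lower in β8ITG-cKO.

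**Figure D1:**
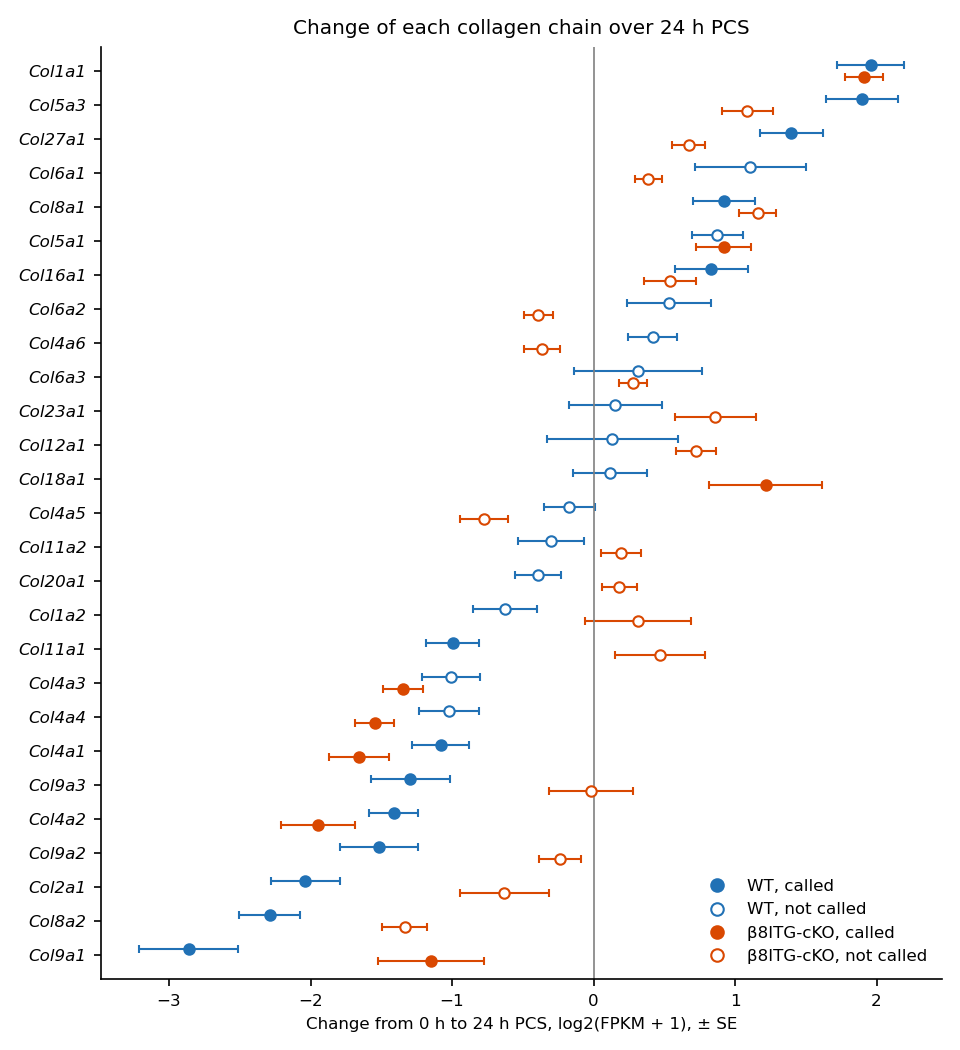
Change in each of 27 collagen chains from 0 h to 24 h PCS on the log2(FPKM + 1) scale (x axis), ordered by the change in WT, with WT in blue and β8ITG-cKO in orange. Points are limma estimates and bars their SE over 3 against 3 libraries, filled where the chain was called. Col1a1 has the highest values in both genotypes (1.96 and 1.91), and Col4a1 and Col4a2 lie left of 0 in both.

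The genes of collagen IV lie as pairs that are read away from each other. In the GENCODE annotation of GRCm38, Col4a1 (chr8:11198423-11312826, minus strand) and Col4a2 (chr8:11312805-11449287, plus strand) overlap by 22 bases at their starts, Col4a4 (chr1:82448423-82586849, minus) and Col4a3 (chr1:82586921-82722059, plus) start 71 bases apart, and Col4a6 (chrX:141165403-141474076, minus) and Col4a5 (chrX:141475385-141689234, plus) start 1308 bases apart. The bases before the starts are shown for the pairs on chromosomes 1 and X because the members of the first pair had nearly the same FPKM as each other in every library and those of the second did not. They are from the RefSeq promoter table (GRCm38.p6), cut at the annotated first exons so that no exon is printed, and are written on the strand of the gene named first. Capitals mark CCAAT or GGGCGG on either strand, so GGGCGG may appear as CCGCCC. The TATA motif TATAAA, the AP-1 motif TGANTCA and the SMAD motif CAGACA were searched in the same way on both strands and had no match in these windows, and no match overlapped another.
Col4a4 and Col4a3, chr1:82586850-82586920, minus strand: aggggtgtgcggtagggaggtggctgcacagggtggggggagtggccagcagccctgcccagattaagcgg
Col4a6, chrX:141474077-141474326, minus strand: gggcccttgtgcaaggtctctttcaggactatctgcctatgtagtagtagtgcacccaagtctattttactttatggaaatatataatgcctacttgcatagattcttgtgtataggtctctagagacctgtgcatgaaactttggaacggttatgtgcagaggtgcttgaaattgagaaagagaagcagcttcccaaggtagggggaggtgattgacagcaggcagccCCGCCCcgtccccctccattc
Col4a5, chrX:141475169-141475384, plus strand: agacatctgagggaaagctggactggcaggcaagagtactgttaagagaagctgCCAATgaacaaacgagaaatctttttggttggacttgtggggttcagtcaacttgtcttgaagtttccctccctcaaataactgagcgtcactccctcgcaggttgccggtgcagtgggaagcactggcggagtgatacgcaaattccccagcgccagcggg
The 71 bases shared by Col4a4 and Col4a3 hold no match and are 69.0% G or C. The Col4a6 window holds 1 GGGCGG and the Col4a5 window 1 CCAAT. Before the cut, the 250 bases for Col4a5 also hold 1 GGGCGG, which does not lie wholly in the bases shown. The shares that follow are over 250 bases, more than the 71 bases of Col4a4 and the 216 of Col4a5 shown here. Of 32851 promoters in the table, 32.7% hold GGGCGG and 33.8% CCAAT within the 250 bases before the start, 12.4% TATAAA, 6.75% TGANTCA and 17.1% CAGACA. Windows were found for 35 of the 44 chains. A match is a match of letters only.

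Col4a1 and Col4a2, the chains that wind together into the network found in most basement membranes, fell over 24 h in both genotypes. Col4a1 had 1176, 1163 and 1195 FPKM at WT 0 h, 661, 507 and 514 at WT 24 h, 1191, 1941 and 1667 at β8ITG-cKO 0 h and 422, 566 and 509 at β8ITG-cKO 24 h. Both 24 h groups lay below both 0 h groups, and the lowest 0 h value was above every 24 h value. The mean in WT went from 1178 ± 16.2 to 561 ± 86.6 FPKM (SD, n = 3), a log2 change of -1.08 ± 0.20, adjusted p = 0.00729 (SE, limma), and in β8ITG-cKO from 1599.6 ± 379 to 499 ± 72.8, a change of -1.66 ± 0.21, adjusted p = 0.00062. Col4a2 had 533, 553 and 579 FPKM at WT 0 h, 241, 189.9 and 196 at WT 24 h, 497, 1030.5 and 808 at β8ITG-cKO 0 h and 161, 219 and 202 at β8ITG-cKO 24 h. Its 24 h values also lay below every 0 h value, with changes of -1.41 ± 0.17, adjusted p = 0.00145 in WT and -1.95 ± 0.26, adjusted p = 0.000798 in β8ITG-cKO by limma. Among the β8ITG-cKO 0 h libraries, replicate 1 was near the WT 0 h level for both chains and the other two were above it.

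Col4a3 and Col4a4 build a second network together with Col4a5, known from the kidney filter and the adult lens capsule. Col4a3 had 128, 115 and 129 FPKM at WT 0 h, 83.97, 51.8 and 52.5 at WT 24 h, 138, 196 and 176 at β8ITG-cKO 0 h and 63.2, 71.6 and 62.6 at β8ITG-cKO 24 h. Col4a4 had 121, 106 and 116 FPKM at WT 0 h, 76.7, 48.9 and 45.96 at WT 24 h, 145, 200.1 and 181 at β8ITG-cKO 0 h and 55.3, 64.7 and 56.97 at β8ITG-cKO 24 h. All 24 h values were below all 0 h values for both chains in each genotype. In β8ITG-cKO both were called lower, with log2 changes of -1.35 ± 0.14, adjusted p = 0.00025 for Col4a3 and -1.55 ± 0.14, adjusted p = 0.000119 for Col4a4 (limma). In WT the test was passed as well (-1.01 ± 0.21, adjusted p = 0.0104 for Col4a3 and -1.02 ± 0.21, adjusted p = 0.0102 for Col4a4), but the means differed by 1.98-fold and 1.996-fold, just short of the 2-fold criterion. WT 24 h replicate 1 held the highest value of its group for both, and without it the WT changes were -1.23, adjusted p = 0.00362 and -1.25, adjusted p = 0.00359, both called. Both were also called without WT 0 h replicate 2 (-1.06, adjusted p = 0.0288 for Col4a3 and -1.07, adjusted p = 0.0281 for Col4a4) and with rescaling of the libraries (-1.27, adjusted p = 0.0052 and -1.28, adjusted p = 0.00468).

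Col4a5 and Col4a6, the X-linked chains, had no called change in either genotype. Col4a5 had 81.5, 77.1 and 84.6 FPKM at WT 0 h, 91.98, 61.6 and 65.3 at WT 24 h, 96.9, 147 and 127 at β8ITG-cKO 0 h and 60.7, 74.8 and 78.6 at β8ITG-cKO 24 h. The WT groups overlapped (-0.17 ± 0.18, adjusted p = 0.498, limma), and in β8ITG-cKO all 24 h values were below all 0 h values (-0.77 ± 0.17, adjusted p = 0.00781) with a fold change of the means of 1.73, short of the 2-fold criterion, which it met with rescaling (-1.07, adjusted p = 0.00216). Col4a6, which pairs with Col4a5 in smooth muscle and lens basement membranes, had 39.98, 37.9 and 41.6 FPKM at WT 0 h, 68.6, 46.3 and 48.1 at WT 24 h, 61.6, 74.1 and 72.7 at β8ITG-cKO 0 h and 46.3, 57.4 and 57.9 at β8ITG-cKO 24 h. Its WT 24 h values were all above its WT 0 h values, a log2 change of 0.42 ± 0.18, adjusted p = 0.112 that did not pass, while its β8ITG-cKO 24 h values were all below those at 0 h (-0.36 ± 0.12, adjusted p = 0.0442, 1.29-fold). The changes of Col4a6 in the genotypes differed by -0.78 ± 0.22, adjusted p = 0.046 on the log2 scale in the interaction of genotype and time over 12 libraries. That call was lost when any of 10 of the 12 libraries was left out, in turn, and held without WT 24 h replicate 2 or WT 24 h replicate 3 (adjusted p from 0.0339 to 0.108 over all 12). Over all 16 alternatives it was lost in 12, the replicate block among them.

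**Figure D2:**
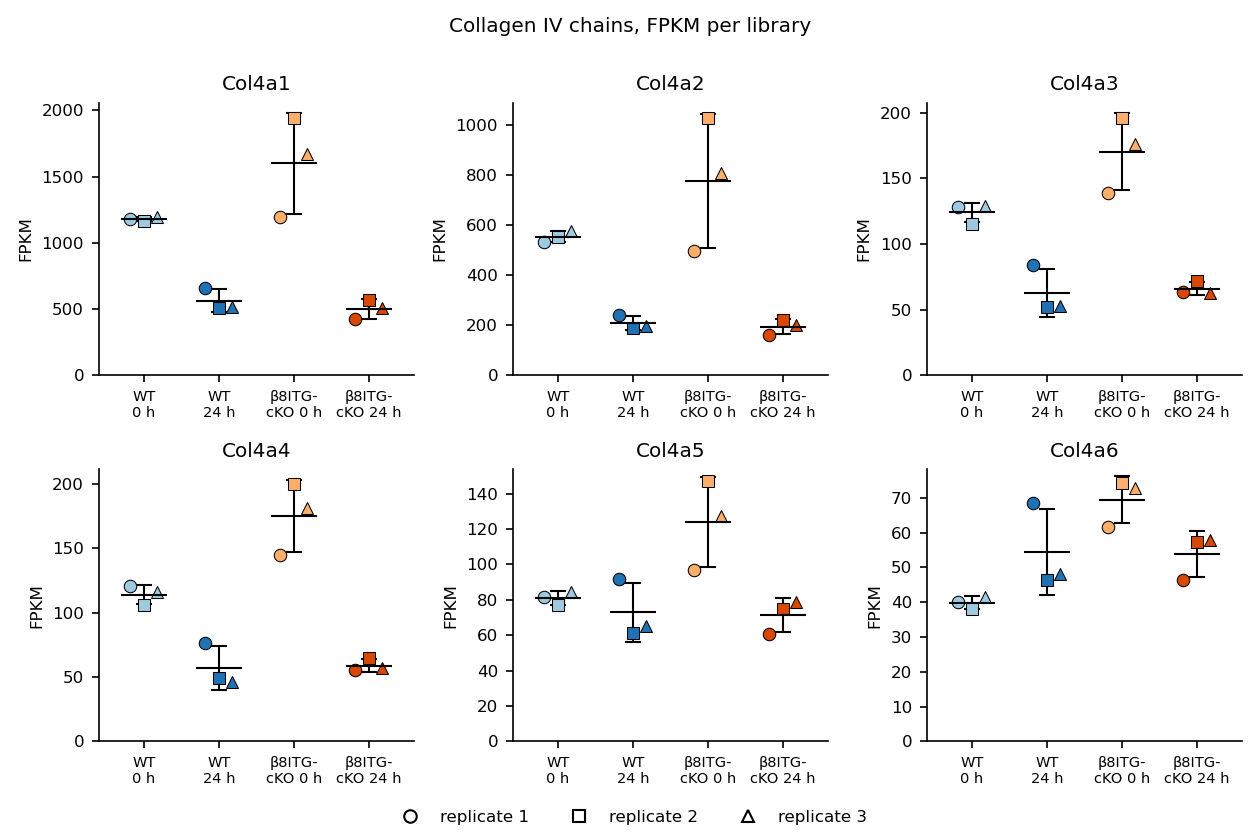
FPKM of the 6 collagen IV chains (y axis, linear from 0) in each library of the 4 conditions, with replicates 1 to 3 as circle, square and triangle and the black line and bar for the mean ± SD (n = 3). Col4a1 to Col4a4 are lower at 24 h PCS in both genotypes, and Col4a6 is higher in WT 24 h than in WT 0 h and lower in β8ITG-cKO 24 h than in β8ITG-cKO 0 h.

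The make-up of collagen IV RNA differed between 0 h and 24 h in both genotypes. Col4a5 and Col4a6 together took 5.84, 5.604 and 5.88% of type IV FPKM in WT 0 h and 13.1, 11.9 and 12.3% in WT 24 h, and 7.44, 6.17 and 6.598% in β8ITG-cKO 0 h against 13.2, 12.5 and 14.1% in β8ITG-cKO 24 h. Col4a1 and Col4a2 took 82.2 to 83.6% in WT 0 h, 73.7 to 77.02% in WT 24 h, 79.3 to 82.8% in β8ITG-cKO 0 h and 72.1 to 74.5% in β8ITG-cKO 24 h. Shares at 24 h did not overlap those at 0 h in either genotype. Within the pairs, the FPKM of Col4a3 divided by that of Col4a4 stayed between 0.958 and 1.14 in all 12 libraries. Col4a1 divided by Col4a2 was 2.06 to 2.21 in WT 0 h and 2.63 to 2.75 in WT 24 h, with 1.88 to 2.399 and 2.52 to 2.62 in β8ITG-cKO. Col4a5 divided by Col4a6 was 2.03 to 2.04 in WT 0 h, 1.33 to 1.36 in WT 24 h, 1.57 to 1.99 in β8ITG-cKO 0 h and 1.303 to 1.36 in β8ITG-cKO 24 h, lower at 24 h where the former ratio was higher. These ratios are descriptions and were not tested. Of the exon bases of Col4a3, 5.65% are shared with C430014B12Rik, and for Col4a1, Col4a2, Col4a4, Col4a5 and Col4a6 the share was at most 0.982%.

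Col1a1 had the largest rise on the log2(FPKM + 1) scale among the chains called higher in either genotype, while by the ratio of the means Col5a3 rose more in WT (13.1-fold). It encodes the chain that makes up most of collagen I, the fibril protein of scar tissue, and is on a list of fibrosis genes that the study chose on these samples, so its direction is not independent evidence. Col4a3, Col4a4 and Col6a1 are on other such lists, and the same holds for them. Col1a1 had 1.99, 0.945 and 0.724 FPKM at WT 0 h, 6.55, 8.76 and 6.96 at WT 24 h, 1.19, 0.694 and 0.842 at β8ITG-cKO 0 h and 6.29, 5.64 and 6.52 at β8ITG-cKO 24 h. Every 24 h value was above every 0 h value, and at 24 h the highest β8ITG-cKO value was just under the lowest WT value. The means went from 1.22 ± 0.674 to 7.42 ± 1.18 FPKM in WT (SD, n = 3; 6.09-fold; log2 change 1.96 ± 0.24, adjusted p = 0.00139 by limma) and from 0.9104 ± 0.257 to 6.15 ± 0.457 in β8ITG-cKO (6.76-fold; 1.91 ± 0.14, adjusted p = 4.55e-05). The changes differed by -0.05 between the genotypes, with a 95% interval of -0.66 to 0.56 (interaction adjusted p = 0.942).

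Col1a2, the partner chain of Col1a1, was not called in any comparison. Col1a2 had 10.5, 17.95 and 10.6 FPKM at WT 0 h, 7.04, 7.33 and 9.32 at WT 24 h, 6.23, 8.26 and 8.27 at β8ITG-cKO 0 h and 8.02, 5.51 and 19.3 at β8ITG-cKO 24 h. It was highest in WT 0 h replicate 2 and β8ITG-cKO 24 h replicate 3, and the changes were -0.62 ± 0.22, adjusted p = 0.0712 in WT and 0.31 ± 0.37, adjusted p = 0.523 in β8ITG-cKO (limma). At 0 h Col1a2 lay far above Col1a1, and at 24 h the levels were closer. Col1a1 divided by Col1a2 was 0.0526 to 0.1898 in WT 0 h, 0.746 to 1.195 in WT 24 h, 0.08402 to 0.192 in β8ITG-cKO 0 h and 0.338 to 1.02 in β8ITG-cKO 24 h. Col3a1 had 0.0308, 0.147 and 0.0839 FPKM in WT 0 h, 0.0791, 0.1503 and 0.139 in WT 24 h, 0.128, 0.0117 and 0.0766 in β8ITG-cKO 0 h and 0.261, 0.377 and 0.409 in β8ITG-cKO 24 h, under the filter in every comparison. The fibroblast and corneal stroma markers summed to 61.8 to 63.5 FPKM in WT 0 h and 14.5 to 33.1 in WT 24 h, and to 83.6 to 101 and 22.3 to 35.1 in β8ITG-cKO, with the defining genes Kera and Lum at or near 0 in every library and Ogn and Pdgfra holding most of the sum. The sum was lower at 24 h, as Ogn and Pdgfra were in both genotypes. Angptl7 (1.52 to 3.18 FPKM) and Lum (0.0651 to 0.183) had higher means at 24 h in WT. Thy1 (0.903 to 2.42), Dcn (0.0934 to 0.441) and Lum (0 to 0.0465) did so in β8ITG-cKO. The part of fibroblast RNA in the levels of these chains was not tested.

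Col5a1 and Col5a3, chains of the collagen V that starts and limits fibrils, were higher at 24 h in both genotypes. Col5a1 had 5.58, 7.59 and 5.73 FPKM at WT 0 h, 13.2, 13.9 and 10.1 at WT 24 h, 6.72, 6.72 and 6.34 at β8ITG-cKO 0 h and 11.9, 10.5 and 18.9 at β8ITG-cKO 24 h. All 24 h values exceeded all 0 h values of the genotype, and the change was 0.92 ± 0.19, adjusted p = 0.0063 in β8ITG-cKO, which was called, and 0.87 ± 0.18, adjusted p = 0.00999 in WT, where the 1.97-fold difference fell short of the criterion. Leaving out β8ITG-cKO 24 h replicate 3, the highest library, ended the call in β8ITG-cKO (0.69, adjusted p = 0.0034), as rescaling did (0.65, adjusted p = 0.0199), both times through the fold. In WT it was called without WT 0 h replicate 2 or without WT 24 h replicate 3 (0.997, adjusted p = 0.0159 and 1.005, adjusted p = 0.00591). Col5a3 had 0.167, 0.318 and 0.434 FPKM at WT 0 h, 2.48, 5.68 and 3.92 at WT 24 h, 1.03, 0.484 and 0.665 at β8ITG-cKO 0 h and 2.32, 2.27 and 3.42 at β8ITG-cKO 24 h. It rose by 1.90 ± 0.25, adjusted p = 0.00205 in WT, and in β8ITG-cKO by 1.09 ± 0.18, adjusted p = 0.00203 with a difference of means under 2 FPKM that kept it from being called. That β8ITG-cKO difference was over 2 FPKM without β8ITG-cKO 0 h replicate 1, 24 h replicate 1 or 24 h replicate 2. Col5a2, the third chain of the type, stayed between 0.113 and 0.576 FPKM and was not tested.

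The summed leukocyte markers were also higher at 24 h, when Col1a1, Col5a1 and Col5a3 were higher. The 7 neutrophil markers summed to 0 to 0.163 FPKM in WT 0 h, 34.01 to 51.7 in WT 24 h, 0 to 1.06 in β8ITG-cKO 0 h and 7.24 to 22.9 in β8ITG-cKO 24 h. Most of the 24 h sums was S100a8 and S100a9, while Elane, a protease of neutrophil granules, was listed at 0 in every library and Ngp, another granule gene, in all but β8ITG-cKO 24 h replicate 3. The 7 macrophage markers summed to 9.27 to 18.1 FPKM in WT 0 h, 22.8 to 35.1 in WT 24 h, 8.98 to 15.1 in β8ITG-cKO 0 h and 28.6 to 43.6 in β8ITG-cKO 24 h. Lyz2 and Cd68 had the highest 24 h means of these, and Adgre1, a surface receptor of mature macrophages, reached at most 0.722 FPKM in any library. In WT the means of Csf1r (2.11 to 1.84 FPKM), C1qa (2.16 to 1.34), C1qb (3.29 to 3.06) and Mrc1 (1.18 to 0.811) were lower at 24 h. Those of Lyz2, Cd68 and Adgre1 were higher in WT, and in β8ITG-cKO the means of all 7 were higher. The part of leukocyte RNA in the levels of these chains was not tested.

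Col27a1, a fibrillar chain of cartilage, and Col16a1, a fibril-associated chain, rose in WT. Col27a1 had 2.15, 2.06 and 3.57 FPKM at WT 0 h, 9.56, 9.39 and 6.35 at WT 24 h, 3.41, 3.58 and 3.69 at β8ITG-cKO 0 h and 6.95, 6.47 and 5.47 at β8ITG-cKO 24 h. The 24 h values were above the 0 h values in both genotypes, and limma gave 1.40 ± 0.22, adjusted p = 0.00395 in WT and 0.67 ± 0.12, adjusted p = 0.00248 in β8ITG-cKO, where the 1.77-fold difference did not meet the 2-fold criterion. Col16a1 had 3.05, 2.38 and 2.41 FPKM at WT 0 h, 8.66, 4.48 and 3.98 at WT 24 h, 2.13, 3.54 and 3.74 at β8ITG-cKO 0 h and 5.27, 5.31 and 4.23 at β8ITG-cKO 24 h. Its WT change of 0.83 ± 0.26, adjusted p = 0.0454 passed narrowly, and it did not pass without WT 0 h replicate 1, 2 or 3 or WT 24 h replicate 1 or 2 (adjusted p = 0.0851, 0.113, 0.114, 0.0795 and 0.0704), with no filter or with rescaling (0.63, adjusted p = 0.103). In β8ITG-cKO the change was 0.54 ± 0.18, adjusted p = 0.041 and not called. Of 8 fibrillar chains tested, 3 were called higher and 2 lower in WT and 2 were called in β8ITG-cKO, both higher, where 10.3% and 3.92% of all genes were called higher and lower in WT and 11.3% higher in β8ITG-cKO.

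**Figure D3:**
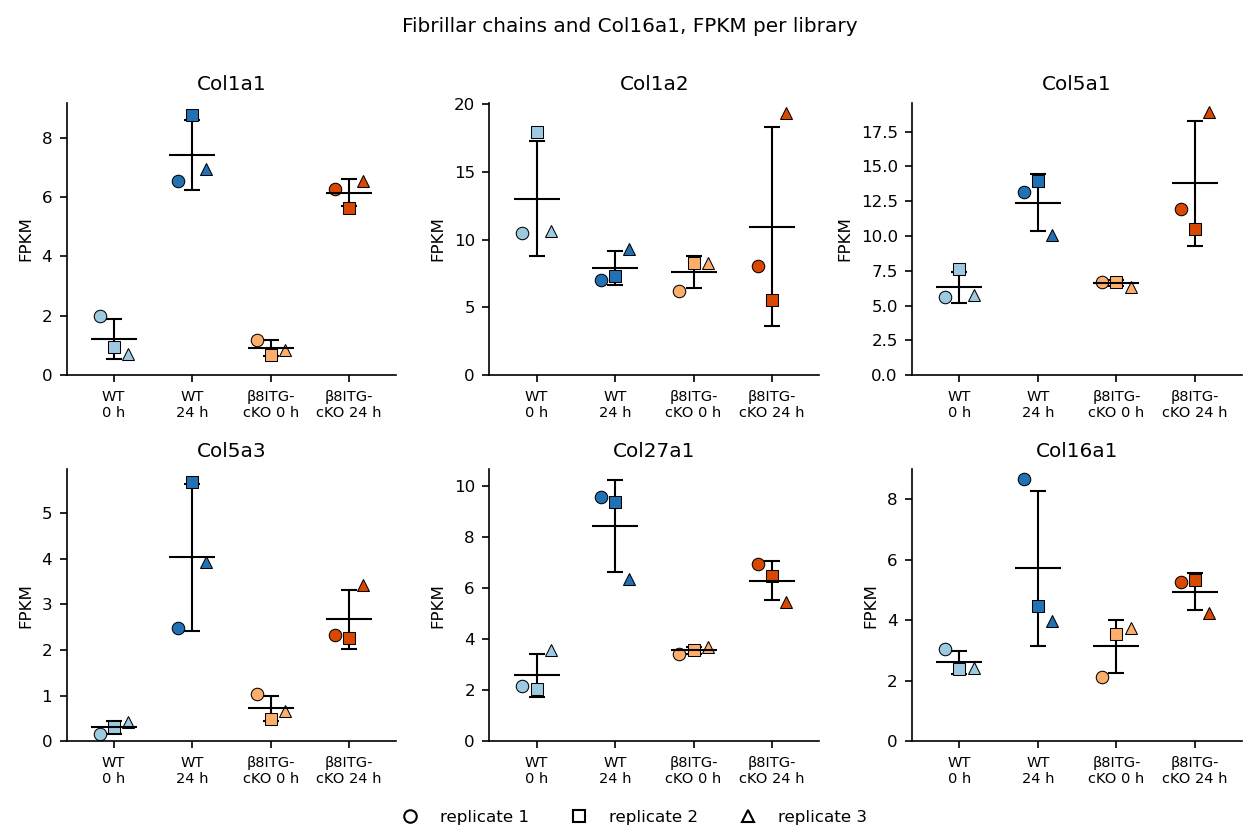
FPKM of the fibrillar chains Col1a1, Col1a2, Col5a1, Col5a3 and Col27a1 and of Col16a1 in each library (y axis, linear from 0), drawn as circle, square and triangle for replicates 1 to 3 with the mean ± SD (n = 3) in black. Col1a1, Col5a1, Col5a3 and Col27a1 lie higher at 24 h than at 0 h in each genotype, and Col1a2 has its highest values in WT 0 h replicate 2 (17.95) and β8ITG-cKO 24 h replicate 3 (19.3).

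Col2a1, Col11a1 and the chains of collagen IX, which join in the fibrils of cartilage and of the vitreous next to the lens, all fell in WT over 24 h. Their summed level was 63.9, 117 and 62.2 FPKM in WT 0 h and 14.7, 16.7 and 24.4 in WT 24 h, and 56.4, 44.1 and 51.2 in β8ITG-cKO 0 h against 29.99, 23.6 and 60.8 in β8ITG-cKO 24 h. WT 0 h replicate 2 was by far the highest of its group, and β8ITG-cKO 24 h replicate 3 stood above every β8ITG-cKO 0 h library. Col2a1, the chain of collagen II, had 13.2, 19.9 and 10.9 FPKM at WT 0 h, 1.99, 2.897 and 3.38 at WT 24 h, 13.4, 7.81 and 10.1 at β8ITG-cKO 0 h and 5.54, 3.95 and 10.7 at β8ITG-cKO 24 h. Its WT groups did not overlap (-2.04 ± 0.24, adjusted p = 0.00139, limma). In β8ITG-cKO they did (-0.63 ± 0.31, adjusted p = 0.137), and without β8ITG-cKO 24 h replicate 3 the change there was -0.98, adjusted p = 0.014 and called. Col11a1, a chain of the collagen XI in the core of these fibrils, had 3.45, 4.43 and 3.27 FPKM at WT 0 h, 1.07, 1.26 and 1.78 at WT 24 h, 3.68, 2.02 and 3.53 at β8ITG-cKO 0 h and 3.26, 3.34 and 8.18 at β8ITG-cKO 24 h. It was lower in all WT 24 h libraries (-0.996 ± 0.19, adjusted p = 0.0071), a call that ended without WT 0 h replicate 2, as the means then differed by just under 2 FPKM (-0.89, adjusted p = 0.0273), and was not called in β8ITG-cKO (0.47 ± 0.32, adjusted p = 0.262).

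The chains of collagen IX, which sit on the surface of collagen II fibrils, were all called lower in WT. Col9a1 had 21.3, 41.9 and 20.5 FPKM at WT 0 h, 2.46, 1.700 and 4.74 at WT 24 h, 20.05, 17.6 and 20.4 at β8ITG-cKO 0 h and 6.36, 4.73 and 17.1 at β8ITG-cKO 24 h. On the log2(FPKM + 1) scale it had the largest fall of any chain in WT (-2.86 ± 0.35, adjusted p = 0.00146, limma; 9.404-fold lower by the means, where Col8a2, a lower chain, was 24.7-fold lower) and fell in β8ITG-cKO too (-1.15 ± 0.37, adjusted p = 0.0376). The β8ITG-cKO call was lost without any of β8ITG-cKO 0 h replicates 1, 2 and 3 or 24 h replicates 1 and 2, in turn (adjusted p = 0.0876, 0.0734, 0.0946, 0.111 and 0.102). Col9a2 had 11.97, 23.5 and 14.3 FPKM at WT 0 h, 3.52, 5.19 and 6.39 at WT 24 h, 8.63, 7.77 and 7.57 at β8ITG-cKO 0 h and 5.87, 5.73 and 8.53 at β8ITG-cKO 24 h. Every WT 0 h value was above every value of the other groups, and it fell in WT (-1.52 ± 0.28, adjusted p = 0.00649) with -0.24 ± 0.15, adjusted p = 0.236 in β8ITG-cKO. Col9a3, of whose exon bases 6.07% are shared with Tcfl5, had 14.03, 27.1 and 13.3 FPKM at WT 0 h, 5.68, 5.63 and 8.17 at WT 24 h, 10.6, 8.92 and 9.62 at β8ITG-cKO 0 h and 8.96, 5.87 and 16.3 at β8ITG-cKO 24 h. It fell in WT (-1.30 ± 0.28, adjusted p = 0.0121), and in β8ITG-cKO the groups overlapped (-0.02 ± 0.29, adjusted p = 0.966, 95% interval -0.70 to 0.67).

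The change over time differed between the genotypes for Col11a1 and Col9a2 in the interaction fit, by 1.47 ± 0.40, adjusted p = 0.0399 and 1.28 ± 0.34, adjusted p = 0.0372 (log2, limma over 12 libraries). For Col2a1, Col9a1 and Col9a3 the differences were 1.40 ± 0.44, adjusted p = 0.0695, 1.71 ± 0.58, adjusted p = 0.0885 and 1.28 ± 0.45, adjusted p = 0.102, which did not pass. Both calls rested on most of the libraries. Over all 16 alternatives, the call was lost in 9 for Col11a1 and in 10 for Col9a2. Col11a1 passed without WT 24 h replicate 3 or any of the 3 β8ITG-cKO 24 h libraries and not without any of the other 8 (adjusted p over the 12 from 0.035 to 0.0965). Col9a2 passed without WT 0 h replicate 1, WT 0 h replicate 3 or WT 24 h replicate 3 and not without any of the other 9 (from 0.0238 to 0.0848). Col2a1 passed without β8ITG-cKO 24 h replicate 2 (1.68, adjusted p = 0.0453) and Col9a1 without WT 24 h replicate 3 (2.01, adjusted p = 0.044).

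Retina markers were high in WT 0 h replicate 2, where these chains were high too. The 9 retina markers, the rod genes Gnat1 and Sag among them, summed to 345, 1165 and 141 FPKM in WT 0 h, 74.6, 129.9 and 140.1 in WT 24 h, 331, 180.3 and 265 in β8ITG-cKO 0 h and 1009, 864 and 1015 in β8ITG-cKO 24 h, and none of the 9 was under 1 FPKM throughout any group. WT 0 h replicate 2 held the highest sum, as it held the highest Col2a1, Col9a1, Col9a2 and Col9a3. All β8ITG-cKO 24 h libraries were high in retina markers, and of these only replicate 3 was high in Col2a1, Col9a1, Col9a3 and Col11a1. The iris and ciliary pigment markers, Tyrp1 and Dct among them, summed to 19.9 to 83.8 FPKM in WT 0 h, 27.5 to 33.3 in WT 24 h, 11.5 to 15.5 in β8ITG-cKO 0 h and 12.6 to 23.7 in β8ITG-cKO 24 h, highest in WT 0 h replicate 1. Without WT 0 h replicate 2, the WT changes were -1.81, adjusted p = 0.00476 for Col2a1, -2.54, adjusted p = 0.00503 for Col9a1, -1.25, adjusted p = 0.0169 for Col9a2 and -0.98, adjusted p = 0.0198 for Col9a3, all still called. The part of retinal, iris or ciliary RNA in the levels of these chains was not tested.

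**Figure D4:**
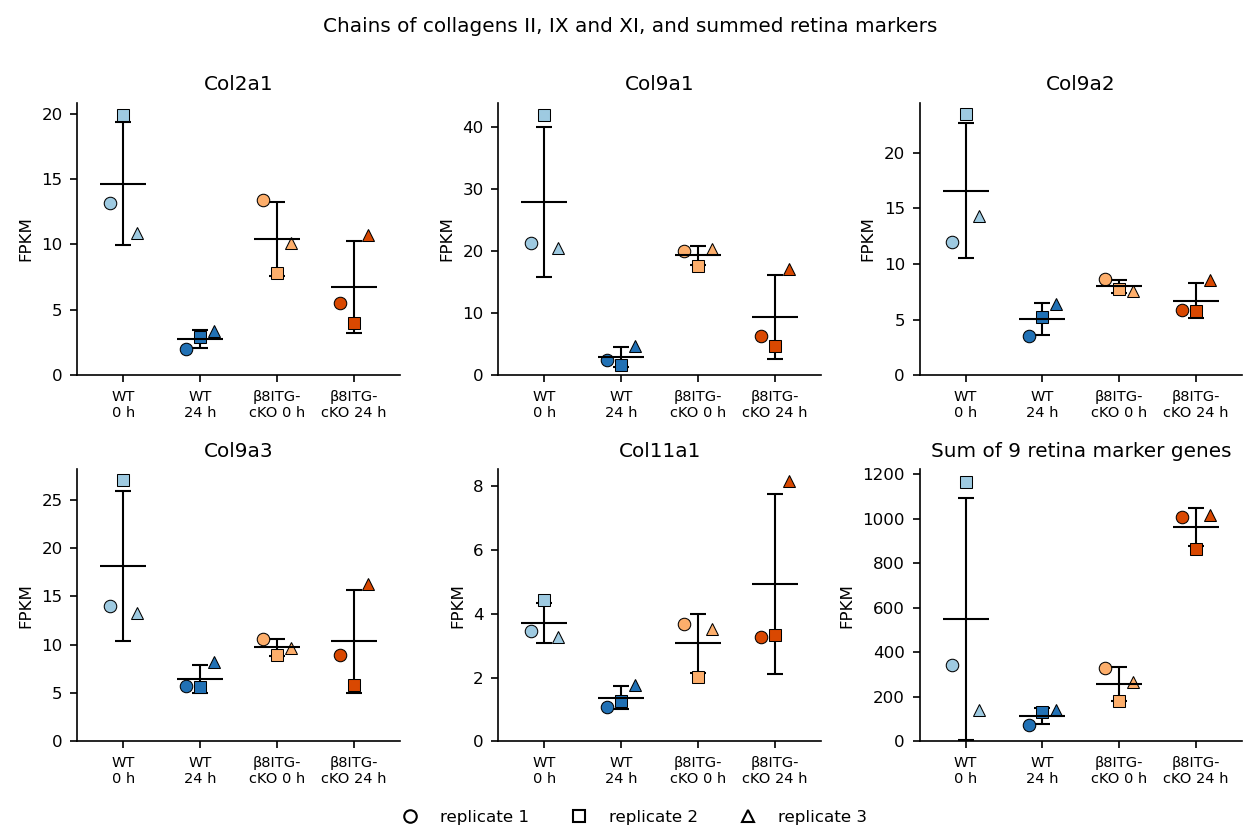
FPKM of Col2a1, Col9a1, Col9a2, Col9a3 and Col11a1 and the summed FPKM of 9 retina marker genes in each library (y axis, linear from 0), with circle, square and triangle for replicates 1 to 3 and the mean ± SD (n = 3) in black. WT 0 h replicate 2 is the highest WT library in all 6 panels, and within β8ITG-cKO 24 h, replicate 3 is the highest for the 5 chains while the retina sums of the group lie close together.

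The chains of collagen VIII changed in opposite directions. Col8a1 and Col8a2 build the hexagonal lattice under the corneal endothelium. Their promoter windows are shown because the chains are partners that parted over 24 h. They are the bases before the start that no annotated collagen exon covers (RefSeq promoter table, GRCm38.p6), written on the strand of the gene, with GGGCGG or its complement CCGCCC and CAGACA in capitals.
Col8a1, chr16:57754738-57754987, minus strand: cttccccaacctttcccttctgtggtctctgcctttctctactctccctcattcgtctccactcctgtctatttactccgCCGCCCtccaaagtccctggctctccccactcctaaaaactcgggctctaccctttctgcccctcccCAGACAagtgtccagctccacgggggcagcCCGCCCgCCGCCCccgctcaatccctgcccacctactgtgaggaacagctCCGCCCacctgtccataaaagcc
Col8a2, chr4:126286544-126286792, plus strand: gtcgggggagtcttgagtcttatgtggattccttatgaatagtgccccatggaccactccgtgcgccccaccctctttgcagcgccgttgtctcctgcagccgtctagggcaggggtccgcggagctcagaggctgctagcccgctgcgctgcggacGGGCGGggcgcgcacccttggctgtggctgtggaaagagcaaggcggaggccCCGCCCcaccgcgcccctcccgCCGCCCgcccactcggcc
The Col8a1 window holds 4 GGGCGG matches and 1 CAGACA, and the Col8a2 window 3 GGGCGG matches. Neither holds TATAAA or the CCAAT box, or the AP-1 motif TGANTCA, and no match overlapped another. GGGCGG is in 32.7% and CAGACA in 17.1% of all promoters of the table.

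Col8a1 had 1.47, 0.912 and 1.22 FPKM at WT 0 h, 3.71, 3.81 and 2.14 at WT 24 h, 0.449, 0.772 and 0.523 at β8ITG-cKO 0 h and 2.32, 2.64 and 2.603 at β8ITG-cKO 24 h. All 24 h values were above all 0 h values. It was called higher in WT (0.92 ± 0.22, adjusted p = 0.0175, limma), and in β8ITG-cKO the change was larger in estimate and past the test (1.16 ± 0.13, adjusted p = 0.000382), though the means differed by under 2 FPKM. The WT call was lost without WT 0 h replicate 2, WT 24 h replicate 1 or WT 24 h replicate 2 (adjusted p = 0.0564, 0.0539 and 0.0637), and with rescaling (0.75, adjusted p = 0.0307) through the size criteria. The β8ITG-cKO difference exceeded 2 FPKM without β8ITG-cKO 0 h replicate 2 or 24 h replicate 1. Col8a2 had 5.29, 3.48 and 6.06 FPKM at WT 0 h, 0.0553, 0.293 and 0.253 at WT 24 h, 2.81, 2.06 and 1.86 at β8ITG-cKO 0 h and 0.244, 0.403 and 0.188 at β8ITG-cKO 24 h. Every 24 h value was below every 0 h value, with a change of -2.29 ± 0.21, adjusted p = 0.000539 in WT, which was called, and of -1.34 ± 0.16, adjusted p = 0.000414 in β8ITG-cKO, where the difference of means was just under 2 FPKM. That difference was over 2 FPKM without β8ITG-cKO 0 h replicate 2, 0 h replicate 3 or 24 h replicate 2, and with rescaling. Col8a1 divided by Col8a2 was 0.201 to 0.278 in WT 0 h, 0.1597 to 0.374 in β8ITG-cKO 0 h, 8.45 to 67.1 in WT 24 h and 6.55 to 13.8 in β8ITG-cKO 24 h. The highest ratio came from WT 24 h replicate 1, where Col8a2 was at 0.0553 FPKM.

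The smaller fall of Col8a2 in β8ITG-cKO passed the interaction test (0.95 ± 0.26, adjusted p = 0.0442, limma), and the call was lost with 9 of the 12 libraries left out in turn, holding without WT 0 h replicate 2, WT 24 h replicate 3 or β8ITG-cKO 0 h replicate 1 (adjusted p from 0.0174 to 0.109). It was also lost with a pseudocount of 0.1 FPKM (1.49, adjusted p = 0.121), with rescaling (0.98, adjusted p = 0.0511), with no filter and with the replicate block. In all, it was lost in 13 of 16 alternatives. At 24 h its mean was under the filter of 0.5 FPKM in the comparison of the genotypes. Col10a1, the related chain of growth cartilage, stayed between 0.0345 and 0.362 FPKM.

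Col6a3 was the collagen chain that differed most between the genotypes at 0 h. Type VI filaments anchor cells to the matrix around basement membranes and contain Col6a1 and Col6a2 beside Col6a3 or a related chain. Col6a3 had 26.4, 20.7 and 41.2 FPKM at WT 0 h, 74.9, 28.2 and 20.8 at WT 24 h, 67.6, 73.9 and 73.4 at β8ITG-cKO 0 h and 80.3, 95.2 and 86.2 at β8ITG-cKO 24 h. All β8ITG-cKO 0 h values lay above all WT 0 h values, 71.7 ± 3.48 against 29.4 ± 10.6 FPKM (SD, n = 3), a difference of 1.31 ± 0.22, adjusted p = 0.0184 by limma. At 24 h the β8ITG-cKO values were again above all WT values, but the WT libraries ranged widely and the difference of 1.27 ± 0.42, adjusted p = 0.134 did not pass. Without WT 24 h replicate 1, the WT library with the highest Col6a3, the 24 h difference was 1.80, adjusted p = 0.00412 and called. The 0 h call was lost without WT 0 h replicate 1, β8ITG-cKO 0 h replicate 2 or β8ITG-cKO 0 h replicate 3 (0.0695, 0.0667 and 0.0839 as adjusted p), and the estimate stayed between 1.09 and 1.57. The call was also lost with no filter and with 1 fit over all 4 groups. The change over time was 0.31 ± 0.45, adjusted p = 0.629 in WT and 0.28 ± 0.10, adjusted p = 0.0518 in β8ITG-cKO.

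Col6a1 and Col6a2, named here after their values were seen, did not follow Col6a3. Col6a1 had 7.002, 4.49 and 4.46 FPKM at WT 0 h, 9.68, 7.67 and 24.9 at WT 24 h, 5.21, 5.22 and 5.06 at β8ITG-cKO 0 h and 6.84, 7.59 and 6.75 at β8ITG-cKO 24 h. Col6a2 had 15.5, 10.6 and 11.9 FPKM at WT 0 h, 14.8, 13.9 and 30.6 at WT 24 h, 11.3, 11.7 and 12.8 at β8ITG-cKO 0 h and 9.06, 7.97 and 9.600 at β8ITG-cKO 24 h. Both were highest in WT 24 h replicate 3, the library where Col6a3 was near its lowest. Their 0 h differences between the genotypes were -0.01 and -0.07 on the log2 scale, with 95% intervals of -0.40 to 0.37 and -0.40 to 0.27. Col6a3 divided by Col6a1 was 3.78, 4.61 and 9.25 in WT 0 h and 7.73, 3.67 and 0.836 in WT 24 h, and 12.99, 14.2 and 14.5 and 11.7, 12.5 and 12.8 in β8ITG-cKO. Every β8ITG-cKO library had a higher ratio than every WT library. Over time, Col6a1 changed by 1.11 ± 0.39, adjusted p = 0.0671 in WT, which did not pass, and by 0.39 ± 0.10, adjusted p = 0.0137 in β8ITG-cKO, too little to be called (limma). Without WT 24 h replicate 2 its WT change was 1.42, adjusted p = 0.0483 and called. Col6a2 gave 0.53 ± 0.30, adjusted p = 0.21 in WT and -0.39 ± 0.11, adjusted p = 0.0186 in β8ITG-cKO. Col6a4, Col6a5 and Col6a6 stayed at or under 0.313 FPKM.

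Col18a1, whose end fragment is endostatin, was called higher in β8ITG-cKO over 24 h. Col18a1 had 84.3, 133 and 76.9 FPKM at WT 0 h, 77.9, 111 and 126 at WT 24 h, 80.7, 40.1 and 58.7 at β8ITG-cKO 0 h and 120.0, 82.8 and 247 at β8ITG-cKO 24 h. The β8ITG-cKO groups did not overlap, and replicate 3 at 24 h was far above all other libraries. The change there was 1.22 ± 0.40, adjusted p = 0.0385 (limma) and in WT 0.12 ± 0.26, adjusted p = 0.766, and the difference between them, 1.10 ± 0.53, adjusted p = 0.234, did not pass. The β8ITG-cKO call was lost without β8ITG-cKO 0 h replicate 2 (0.96, adjusted p = 0.121), 0 h replicate 3 (1.23, adjusted p = 0.0862), 24 h replicate 1 (1.30, adjusted p = 0.0692) or 24 h replicate 3 (0.78, adjusted p = 0.072), and with rescaling (0.92, adjusted p = 0.088). The 5 vessel markers, Kdr, Pecam1 and Cdh5 among them, summed to 0.994 to 1.700 FPKM in β8ITG-cKO 0 h and 5.47 to 7.38 in β8ITG-cKO 24 h. In WT they summed to 0.677 to 4.25 and 0.7404 to 2.02. Kdr had the highest mean in every group. In WT the means of Kdr (1.82 to 0.608 FPKM) and Emcn (0.0434 to 0) were lower at 24 h, and those of Pecam1, Cdh5 and Tek higher. In β8ITG-cKO all 5 means were higher. The retina markers summed to 180.3 to 331 FPKM in β8ITG-cKO 0 h and 864 to 1015 in β8ITG-cKO 24 h, and to 141 to 1165 and 74.6 to 140.1 in WT. The part of vessel or retinal RNA in Col18a1 was not tested. Col15a1, the other chain of this class, did not exceed 0.332 FPKM.

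**Figure D5:**
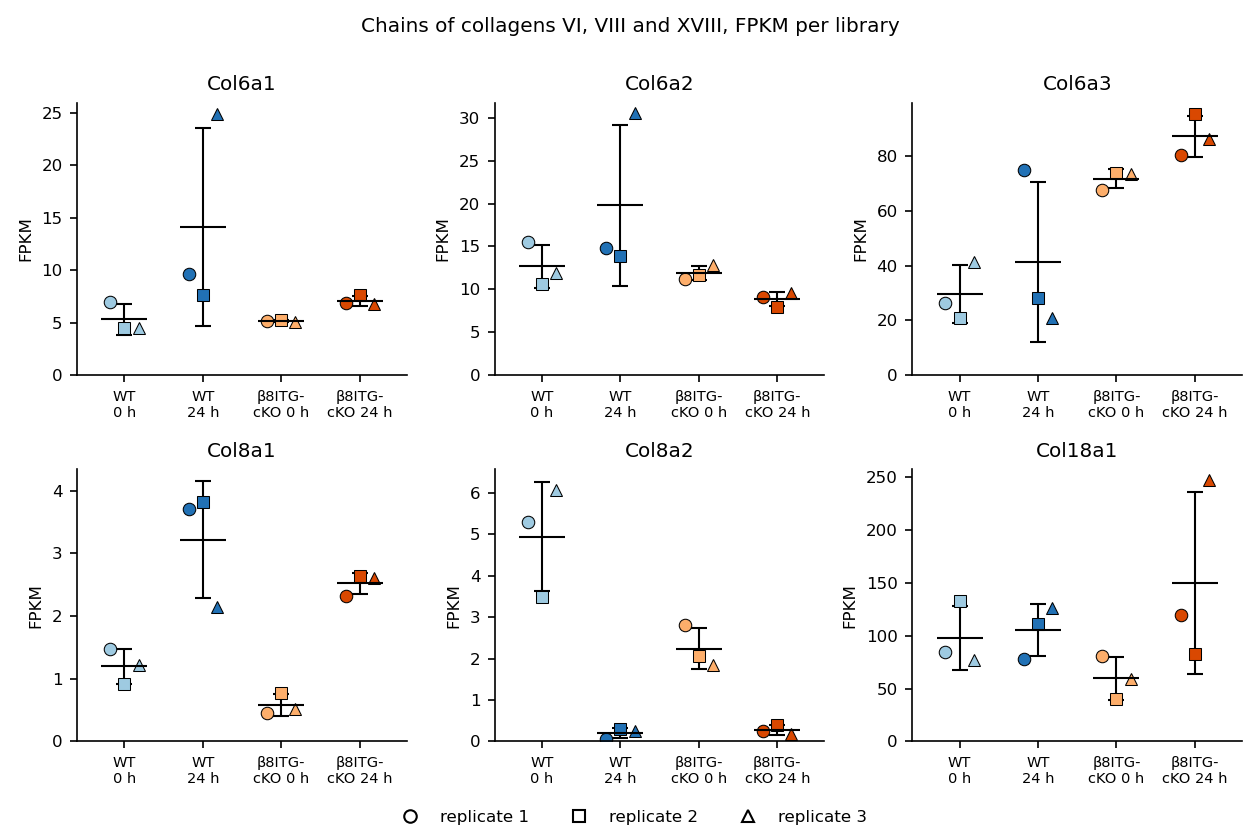
FPKM of Col6a1, Col6a2, Col6a3, Col8a1, Col8a2 and Col18a1 in each library (y axis, linear from 0), as circle, square and triangle for replicates 1 to 3 with the mean ± SD (n = 3) in black. Col6a3 is higher in every β8ITG-cKO library than in every WT library of its time, Col8a1 and Col8a2 go in opposite directions over 24 h, and WT 24 h replicate 3 stands apart for Col6a1 (24.9 FPKM) and Col6a2 (30.6 FPKM).

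Between the genotypes at 0 h, 1 of 27 chains was called higher and 2 lower in β8ITG-cKO, where 1.35% of 14708 genes were called higher and 1.18% lower. The higher chain was Col6a3, and the lower ones were Col9a2 (7.99 ± 0.564 against 16.6 ± 6.099 FPKM; -0.92 ± 0.22, adjusted p = 0.048, limma) and Col8a2 (2.24 ± 0.504 against 4.94 ± 1.32; -0.86 ± 0.20, adjusted p = 0.0437). By adjusted p alone Col4a6 (0.78 ± 0.11, adjusted p = 0.00987) and Col4a4 (0.60 ± 0.14, adjusted p = 0.0445) were higher too. The adjusted p rose over 0.05 for Col4a4 in 9 of 11 alternatives and for Col4a6 in 1 of 11. Groups did not overlap for 6 chains higher and 7 lower, beside 18% and 12.8% of all genes. Col4a3 to Col4a6 were among the 6. The median difference of the chains was -0.0679 and that of all genes 0.0246. Leaving out 1 library left 0 to 2 calls: none without WT 0 h replicate 1, β8ITG-cKO 0 h replicate 2 or β8ITG-cKO 0 h replicate 3, 1 without WT 0 h replicate 3 or β8ITG-cKO 0 h replicate 1, and 2 without WT 0 h replicate 2. Col9a2 passed only without WT 0 h replicate 2, the library with the most retina marker RNA, and there its difference was -0.65, adjusted p = 0.0378, under 2-fold. The corneal epithelium list was at 212 to 271 FPKM in WT 0 h and 539 to 920.5 in β8ITG-cKO 0 h, almost all of it Aldh3a1, with Krt12 and Krt5 under 1 FPKM in β8ITG-cKO 0 h. The 5 red blood cell markers summed to 67.95 to 153 FPKM in WT 0 h and 6.52 to 15.8 in β8ITG-cKO 0 h, and to 35.96 to 219.7 and 87.4 to 195 at 24 h. The part of these cells in the 0 h differences was not tested.

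At 24 h, 0 of 27 chains were called between the genotypes by limma. An unadjusted p under 0.05 was found for 7, a count that was not made over all genes. Over all 15366 genes 3.37% were called higher in β8ITG-cKO and 0.286% lower. Groups did not overlap for 6 chains higher and 3 lower, beside 17.5% and 9% of all genes. The largest differences were 1.28 ± 0.45, adjusted p = 0.165 for Col9a1, 1.27 ± 0.42, adjusted p = 0.134 for Col6a3, 1.24 ± 0.31, adjusted p = 0.0622 for Col11a1 and 0.96 ± 0.32, adjusted p = 0.136 for Col2a1, all higher in β8ITG-cKO and without overlap except Col9a1, and -0.99 ± 0.28, adjusted p = 0.094 for Col6a2. The collagen IV chains had estimates from -0.17 for Col4a1 to 0.10 for Col4a3, with 95% intervals of -0.63 to 0.30 and -0.38 to 0.58. Col1a1 gave -0.23 ± 0.15, adjusted p = 0.439 and Col5a1 0.11 ± 0.23, adjusted p = 0.828. The estimates for the collagens of the vitreous came from libraries in which the retina markers summed to 864 to 1015 FPKM in β8ITG-cKO and 74.6 to 140.1 in WT.

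In the interaction of genotype and time, 3 of 27 chains passed with a more positive change in β8ITG-cKO and 1 with a more negative change, where 6.83% and 2.56% of 15262 genes passed. They were Col11a1, Col9a2 and Col8a2, and Col4a6. A total of 12 chains had an unadjusted p under 0.05, which was not counted over all genes. For the type IV chains the 6 interaction estimates were all negative, from -0.78 (Col4a6) to -0.34 (Col4a3), and their β8ITG-cKO 0 h means were all above WT 0 h. With 1 library left out, the count ran from 0 (without β8ITG-cKO 0 h replicate 2 or replicate 3) to 6 (without WT 24 h replicate 3), with 1 or 2 in the other 9 cases.

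The machinery that folds, cuts and crosslinks collagen was tested as a list of 32 genes. In WT over 24 h, 6 of 30 tested were called higher and 3 lower, and in β8ITG-cKO 4 of 31 higher and 3 lower. Over all genes these shares were 10.3% and 3.92% in WT and 11.3% and 3.77% in β8ITG-cKO, so that the 4 of 31 lay near the background. The list had medians of 0.441 and 0.270 on the log2 scale beside 0.158 and 0.228 over all genes. The called genes of at least 10 FPKM with the largest changes in WT were Bmp1 (24.8 to 109.6 FPKM, 2.099 ± 0.16, adjusted p = 0.000238), the protease that trims procollagen ends, and Plod3 (6.23 to 25.4 FPKM, 1.85 ± 0.18, adjusted p = 0.000599), a lysyl hydroxylase and glycosyltransferase (limma). In β8ITG-cKO they were Pcolce (60.1 to 23.4 FPKM, -1.38 ± 0.24, adjusted p = 0.00261), an enhancer of that trimming, and P4ha2 (42.04 to 16.1 FPKM, -1.32 ± 0.17, adjusted p = 0.000614), a prolyl hydroxylase subunit. Pcolce and P4ha2 were called lower in WT as well. Between the genotypes limma called 0 of 27 genes at 0 h and 0 of 32 at 24 h. Over all genes 1.35% were called higher in β8ITG-cKO and 1.18% lower at 0 h, and 3.37% and 0.286% at 24 h. An unadjusted p under 0.05 was reached by 17 and 7 of the list, a count that was not made over all genes. The interaction was passed by 1 gene with a more positive and 5 with a more negative change in β8ITG-cKO, of 30 tested, beside 6.83% and 2.56% of all genes, with Bmp1 (-1.15 ± 0.17, adjusted p = 0.00537) and Plod3 (-0.90 ± 0.21, adjusted p = 0.0213) having the largest differences among those of at least 10 FPKM.

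Of 11 collagen receptor genes, 5 were tested over time in each genotype. In each, 1 was called higher and 0 lower. Over all genes 10.3% were called higher in WT and 11.3% in β8ITG-cKO. Itgb1, the β1 subunit shared by the collagen-binding integrins and also on the study's fibrosis list, was the 1 gene called in WT (40.6 to 123 FPKM, 1.51 ± 0.25, adjusted p = 0.00424, limma). Adgrg1, a receptor for collagen III named here after its value was seen, was the 1 gene called in β8ITG-cKO (1.75 to 4.498 FPKM, 0.90 ± 0.29, adjusted p = 0.0353). The collagen receptor tyrosine kinase Ddr2 was the 1 of 5 receptors that passed the interaction test (-0.62 ± 0.12, adjusted p = 0.012, limma). Over all genes 6.83% passed with a more positive change in β8ITG-cKO and 2.56% with a more negative change. Between the genotypes limma called 0 of 5 receptors at 0 h and 0 of 6 at 24 h. Over all genes 1.35% were called higher in β8ITG-cKO and 1.18% lower at 0 h, and 3.37% and 0.286% at 24 h. Of the receptors, 4 and 2 had an unadjusted p under 0.05, which was not counted over all genes.

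The proteins that share the basement membrane with collagen IV were taken as a further list. Of 18 genes tested from a list of laminins, nidogens, perlecan and others, 1 was called higher and 4 lower in WT and 2 higher and 6 lower in β8ITG-cKO, where 10.3% and 3.92% of all genes were called in WT and 11.3% and 3.77% in β8ITG-cKO. The list medians were -0.638 and -0.440 on the log2 scale, beside 0.158 and 0.228 over all genes. In WT the gene of at least 10 FPKM with the largest change was Npnt (49.4 to 5.995 FPKM, -2.91 ± 0.25, adjusted p = 0.000366), an integrin ligand (limma). In β8ITG-cKO the largest changes were those of Npnt (58.7 to 7.31 FPKM, -2.84 ± 0.23, adjusted p = 7.55e-05) and Lama3 (25.2 to 4.39 FPKM, -2.30 ± 0.23, adjusted p = 0.000193), a laminin chain of epithelial anchoring. At 0 h, 2 of 18 genes were called higher in β8ITG-cKO and 0 lower, beside 1.35% and 1.18% of all genes. The 2 included Lamb1, a laminin chain found in many basement membranes (42.00 FPKM in β8ITG-cKO against 20.2 in WT, 1.001 ± 0.15, adjusted p = 0.0134, limma). At 24 h 0 of 18 were called, beside 3.37% called higher and 0.286% lower of all genes. An unadjusted p under 0.05 was reached by 5, which was not counted over all genes. In the interaction, 1 of 18 genes had a more positive change and 3 a more negative change in β8ITG-cKO, beside 6.83% and 2.56% of all genes. Lama3 was among the latter 3 (-1.47 ± 0.38, adjusted p = 0.0348, limma).

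Col23a1, a membrane-bound collagen and the ninth chain by mean level, ranged from 13.5 to 49.3 FPKM, was highest in β8ITG-cKO 24 h replicate 3 and passed the adjusted p in β8ITG-cKO over 24 h (0.86 ± 0.29, adjusted p = 0.0413, limma) without meeting the 2-fold criterion. It met it without β8ITG-cKO 0 h replicate 1 or 24 h replicate 2. Col12a1, a fibril-associated chain of tendon and cornea, rose by 0.72 ± 0.14, adjusted p = 0.00423 in β8ITG-cKO by the test alone, and its WT groups overlapped (0.13 ± 0.46, adjusted p = 0.85). Col7a1, the anchoring fibril chain, had 0.216, 0.281 and 0.2503 FPKM at β8ITG-cKO 0 h and 0.856, 0.8802 and 1.07 at β8ITG-cKO 24 h. Its WT means were 0.337 FPKM at 0 h and 0.439 at 24 h, under the filter. Over time it was tested in β8ITG-cKO only, where it passed the filter through its 24 h values. The test there (0.63 ± 0.13, adjusted p = 0.00564, limma) is therefore no separate support for a rise, and the genotypes were not compared in it. Col11a2 (0.176 to 1.25 FPKM) and Col20a1 (0.507 to 1.17 FPKM) passed no test. These 5 were named after their values were seen. Among the 16 chains that never reached 1 FPKM, Col17a1 of hemidesmosomes, with 0.568, 0.476 and 0.728 FPKM in WT 24 h and 0.126, 0.0521 and 0.0308 in WT 0 h, reached the highest value of 0.728 FPKM.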

How the data were processed

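Capsules with attached LCs gave 12 total RNA libraries (SMARTer Stranded Total RNA-Seq Pico kit), 3 per condition. Per the labels and the submitters' processing notes, the tools were FastQC, cutadapt 1.12, TopHat2 2.1.0 and Cuffdiff 2.2.1, and the builds named were mm10 and GRCm38.p5. The authors deposited FPKM per gene and library in 4 tables, 1 for each pair of conditions, each of 45859 rows. The tables also hold group values, log2 fold changes, test statistics, p-values and q values of the authors' own comparisons, which were not used, and 16 columns of group values with no library of their own were left out. The 12 library columns agreed wherever a library was in several tables, with 0 values that differed. FPKM are scaled to mapped fragments and length, so a few very abundant genes can shift all others, and values of genes that share exons can be split between them.

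Groups were taken from the sample titles. For every pair of conditions, FPKM were log2-transformed after adding a pseudocount of 1, genes averaging under 0.5 FPKM across the libraries compared were dropped, and limma-trend was run (limma 3.58.1, eBayes, R 4.3.3). P-values were adjusted over all remaining genes by the Benjamini-Hochberg method. Calls required an adjusted p no higher than 0.05 plus the size criteria of the study's methods: means more than 2-fold and more than 2 FPKM apart, the higher one reaching 2 FPKM. The interaction was fitted over 12 libraries and called on adjusted p alone. A pseudocount of 1 FPKM understates the change of low genes. Errors of log2 values are SE, and of FPKM are SD. An exact permutation test of 3 against 3 libraries cannot go below p = 0.1, so none was run. The labels call the samples replicates, and the p-values measure the spread between these pools of 5 capsules. The fit was tested on simulated data.

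The collagen chains and all gene lists were chosen with earlier results of these data known. Described with all values were chains called in at least 1 comparison or in the interaction, and Col4a1 to Col4a6, Col1a1, Col1a2, Col3a1 and Col18a1. From the lists of folding and crosslinking genes, receptors and basement membrane partners, the called genes named were the 2 with the largest change in each comparison among those of at least 10 FPKM. Among the genes that this rule selects, 1 is left out of the text. Markers of other cell types (10 lists) were summed in each library, without a test. Positions are from GENCODE for GRCm38, where all 44 genes overlapped the position in the files. Alternatives were a pseudocount of 0.1 FPKM, no filter, rescaling to the same median over genes of at least 2 FPKM, the replicate block, 1 fit over all 4 groups, adjusted p alone and each library left out. Figures were drawn with matplotlib 3.10.9 in Python 3.11.15.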

Additional observations from a re-analysis of the deposited data

Results flagged for a closer look

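The change from 0 h to 24 h PCS differed between the genotypes for 4 collagen chains in the interaction fit of limma over 12 libraries. The difference, as the β8ITG-cKO change minus the WT change on the log2(FPKM + 1) scale, was 1.47 for Col11a1, 1.28 for Col9a2, 0.95 for Col8a2 and -0.78 for Col4a6. Each was lost when single libraries were left out, as given with each chain above. The retina markers were high in all 3 β8ITG-cKO 24 h libraries and in WT 0 h replicate 2, the library of WT 0 h with the highest Col9a2 and Col11a1. For Col9a2, β8ITG-cKO differed from WT by -0.92 at 0 h and by 0.36 at 24 h. For Col11a1 these values were -0.23 and 1.24. The part of retinal RNA in the differences for Col11a1 and Col9a2 was not tested.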

How the results depend on the processing

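The count of chains called over 24 h in WT stayed within 1.5 times of 13 under every alternative, from 11 (no filter) to 16 (adjusted p alone), and 12 to 14 with 1 library left out. In β8ITG-cKO it was 8, with 6 to 10 under the others and 20 by adjusted p alone, which drops the size criteria. Between the genotypes at 24 h the count of 0 became 1 with a pseudocount of 0.1 FPKM, 2 with the replicate block, 3 with 1 fit over all 4 groups, and 0 to 1 with 1 library left out. At 0 h the count of 3 became 0 with no filter, 1 with the replicate block, 5 by adjusted p alone and 0 to 2 with 1 library left out. In the interaction 4 became 2 with the replicate block and 0 to 6 with 1 library left out. Apart from adjusted p alone, the cause was not tested. The replicate numbers did not pair the libraries: deviations of libraries with the same number correlated from -0.218 to 0.0813, and not every library correlated best with its own number.

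Of 40 comparisons of named chains with an adjusted p of at most 0.05, none changed sign under any alternative, 25 kept that p under all of them and 15 lost it under at least 1. Of 64 that did not pass, 20 changed sign and 13 passed under at least 1. Depth could not be judged from read totals, and chains under 0.5 FPKM were not tested except with no filter.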
